A study of Mus musculus with 48 samples.

Results

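The genes described here encode proteins of caveolae, the small flask-shaped pits of the plasma membrane: the caveolins CAV1 and CAV2, the cavins PTRF and SDPR, and the neck ATPase EHD2. They were chosen by name, as all probes whose array symbol is one of these 5, which gave 6 of the 24613 probes and 5 of the 18991 gene symbols on the array. PTRF and SDPR are older symbols, and the genes are now called Cavin1 and Cavin2. The 6 probes were followed in 3T3-L1 cells, a mouse fibroblast-like line obtained from ATCC that becomes adipocytes under hormones. Cells received 50 nM of a SMARTpool of siRNAs against PPARγ (the PPARγ KD) or of a pooled non-targeting siRNA (control siRNA) before differentiation. At confluence, 0.5 mM IBMX and 0.25 µM dexamethasone were given for 48 hours from day −2, followed from day 0 by insulin at 5 µg/ml and 1 µM rosiglitazone, a PPARγ agonist, for 48 hours, with fresh medium every 2 days. The schedule was the same for both siRNAs, so the controls also received rosiglitazone; days are counted from its addition, and the arrays of day −2 precede it. RNA of day −2 and of each of days 0 to 6 was hybridised in 3 biological replicates per siRNA, which makes 24 arrays per siRNA and 48 in all. A single siRNA pool was used against PPARγ, so an effect of PPARγ loss and an effect peculiar to the pool cannot be told apart.

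Caveolae are among the most conspicuous structures of the fat cell surface, where they are known for taking part in lipid uptake, insulin signalling and the buffering of membrane tension. Caveolins are hairpin proteins that sit in the inner leaflet of the membrane: caveolin 1 is needed for the pit to form outside muscle, and caveolin 2 assembles with it into larger oligomers. Cavins coat the pit from the cytosol. Cavin 1 (PTRF) is the essential coat subunit, cavin 2 (SDPR) binds phosphatidylserine and helps to shape the membrane, and EHD2 forms a ring at the neck that holds the pit at the surface.

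The stretches upstream of 3 of these genes are shown because CAV2 and SDPR were the members called lower in the PPARγ KD, while CAV1, whose gene lies close to Cav2 on the same chromosome, was not called over all days. RefSeq's promoter table for build GRCm38.p6 held windows for all 5 genes, 7 windows in all. Each line gives the 250 bases before a transcription start, 5′ to 3′, all on the plus strand: chr6:17280935-17281184 for Cav2, chr1:51288876-51289125 for Cavin2, and chr6:17306085-17306334 for the upstream one of the 2 windows of Cav1. Capitals mark matches, on either strand, to GGGCGG (a GC box), CCAAT or TATAAA; no marked matches overlap.
Cav2: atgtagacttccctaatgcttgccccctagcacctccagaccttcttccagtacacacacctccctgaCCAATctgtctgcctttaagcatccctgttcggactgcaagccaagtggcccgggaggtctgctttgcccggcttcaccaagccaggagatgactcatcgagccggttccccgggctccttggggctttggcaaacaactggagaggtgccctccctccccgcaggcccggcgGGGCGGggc
Cavin2 (SDPR): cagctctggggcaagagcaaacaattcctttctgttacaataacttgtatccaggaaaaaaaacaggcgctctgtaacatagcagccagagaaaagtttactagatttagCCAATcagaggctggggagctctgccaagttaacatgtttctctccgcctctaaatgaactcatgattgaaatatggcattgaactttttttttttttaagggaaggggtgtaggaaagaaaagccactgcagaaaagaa
Cav1: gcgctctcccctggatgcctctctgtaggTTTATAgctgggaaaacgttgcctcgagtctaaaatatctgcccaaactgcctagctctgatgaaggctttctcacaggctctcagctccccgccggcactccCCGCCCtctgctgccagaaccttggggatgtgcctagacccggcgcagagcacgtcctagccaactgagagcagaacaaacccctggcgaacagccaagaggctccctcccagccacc

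The 3 windows differed in base composition, with 62.0% G and C in Cav2, 59.6% in Cav1 and 40.4% in Cavin2, against a median of 52.4% over all 32851 windows. Cav2 and Cavin2 each held 1 CCAAT, which 33.8% of all windows hold, and the Cav1 window held none. TATAAA was present in Cav1 alone of these 3 and in 12.4% of all windows, and GGGCGG was present in Cav2 and Cav1 and in 32.7% of all windows. None of the 7 windows of the 5 genes held AGGTCA, the core letters of many nuclear receptor sites (14.0% of all windows), or 2 copies of AGGNCA with any 1 base between them, the repeat bound by PPARγ with RXR (0.338% of all windows). The searches covered both strands, and they say only which letters stand in these windows.

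Values are the authors' mean bead intensities, deposited without normalization, which were corrected here for background, scaled between arrays on probes of stable rank and taken to log2; a log2 signal compares arrays for 1 probe and not 1 probe with another. CAV1, CAV2 (probe 5130563), PTRF and SDPR had a detection p under 0.01, here called above background, on 48 of 48 arrays. The second CAV2 probe, 5130286, and the EHD2 probe, 6040044, were above background on 0 of 48 arrays. Their raw intensities lay between 73.3 and 110.1 and between 64 and 107.9, so no level of EHD2 could be measured, and CAV2 rests on the brighter of its probes. EHD2 is the symbol of the array's design, and RefSeq also lists it as an old name of Ehd3, which the array carries separately.

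**Figure D1:**
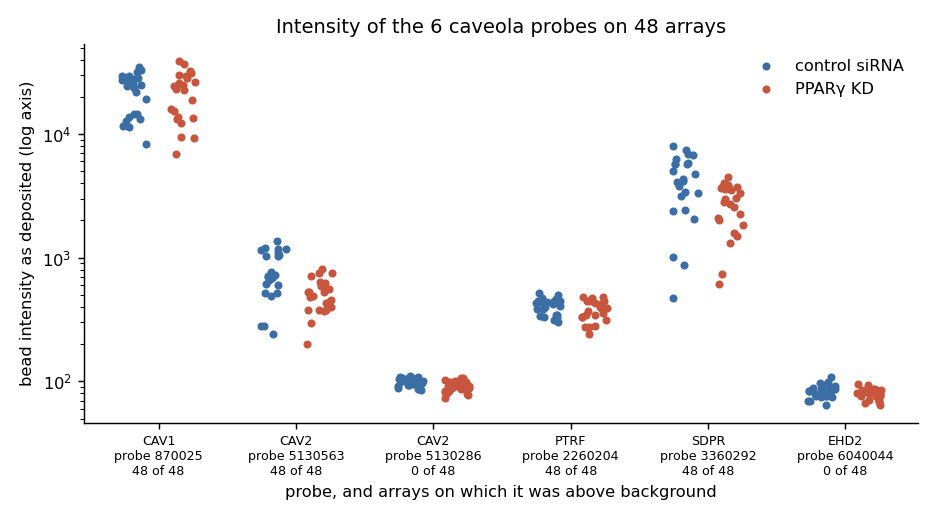
Bead intensity as deposited (log axis) of the 6 caveola probes on the 48 arrays, 1 point per array, with control siRNA in blue and PPARγ KD in red; the last line under each probe counts the arrays on which it was above background. The EHD2 probe and CAV2 probe 5130286 stay between 64 and 110.1 on every array, at 0 of 48 arrays above background, and heights of different probes are not comparable as transcript levels.

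Raw intensities of the CAV1 probe ran from 6886.4 to 38773.6, which placed it between the 98.7th and the 99.7th percentile of the probes on each array, and the SDPR probe ran from 475.2 to 7931.4. CAV2 ran from 200.3 to 1369.4 and PTRF from 240.1 to 516.7. Each value is a mean over 21 to 59 beads, and its standard error over beads had a median of 3.31% for CAV1, 3.53% for CAV2, 4.38% for PTRF and 3.65% for SDPR. The number of arrays limits the precision further.

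The arrays of replicate 3 stood apart from the others. Between 33.4% and 35.4% of the probes were above background on them, against 36.8% to 40.4% on the arrays of replicates 1 and 2. Mean log2 signals of replicate 3 were 0.64 lower for CAV1 and 0.24 lower for SDPR than those of replicates 1 and 2, and they were 0.67 higher for CAV2 and 0.85 higher for PTRF. Replicate number was therefore a term of the fit, as the study's methods removed a batch effect, and the main results are also given without replicate 3. Pparg itself, read by probe 6130632 on 48 of 48 arrays, differed by −2.34 in log2 signal (SE 0.04). It was lower in the PPARγ KD in 24 of 24 pairs of arrays of equal day and replicate number. Pparg probes 1990168 and 2680603, above background on 29 and 8 arrays, differed by −2.51 and −1.21 and were lower in 24 and 21 of 24 pairs. Of defining markers of other cell types, 6 of 6 endothelial and 5 of 5 skeletal muscle markers were above background on no array, as were 4 of 5 macrophage markers, while the fifth, CD14, was above it on 40 arrays.

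Over days −2 to 6, CAV2 and SDPR were lower in the PPARγ KD, and CAV1 and PTRF did not pass the test. For CAV2 the mean over all days was a log2 signal of 9.29 in the controls and 8.67 in the KD arrays (difference −0.62, SE 0.04, 1.54-fold), with a Bonferroni adjusted p of 1.55e-13 from limma. SDPR fell from 11.82 to 11.25, a difference of −0.57 (SE 0.04, 1.49-fold, adjusted p = 5.87e-13 from limma). In each of the 3 replicates the mean over days was lower for both: by −0.62, −0.67 and −0.56 for CAV2, and by −0.66, −0.46 and −0.60 for SDPR. The difference was −0.08 (SE 0.03) for CAV1 and −0.15 (SE 0.04) for PTRF, each with an adjusted p of 1 from limma, and PTRF was lower in all 3 replicates.

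Thus 2 of the 6 probes passed the threshold, both lower, where 13.1% of all probes passed it and 6.74% passed as lower. Among the 9217 probes above background on at least 24 arrays, 30.4% passed and 15% passed as lower, against 2 of the 4 caveola probes that bright. The median difference was −0.15 over the 5 genes and −0.03 over all probes. Over the 4 genes above background it was −0.36, against 0.02 over the bright probes. Without replicate 3 the difference was −0.65 for CAV2 (adjusted p = 3.58e-08) and −0.56 for SDPR (adjusted p = 4.96e-07, both from limma), with 10.5% of all probes called. Without replicate number as a term the CAV2 call was lost (adjusted p = 0.115) and that of SDPR was not. RNA came from whole cultures, so fewer cells of a type and less RNA per cell cannot be told apart.

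On days 4 to 6, fitted on their own 18 arrays, the same 2 genes were lower and the other 2 measured genes again did not pass. CAV2 was 2.57-fold lower in the PPARγ KD (log2 difference −1.36, SE 0.06, adjusted p = 2.42e-10 from limma) and SDPR was 1.77-fold lower (−0.82, SE 0.05, adjusted p = 5.54e-07). CAV1 differed by −0.32 (SE 0.06) and PTRF by −0.25 (SE 0.07), each lower in all 3 replicates and each with an adjusted p of 1 from limma; under Benjamini-Hochberg adjustment their p-values were 6.29e-04 and 0.0242. Again 2 of 6 probes were called, both lower, where 5.31% of all probes were called and 3.77% were called lower (11.8% and 8.12% of the bright probes). The median difference was −0.32 over the 5 genes and −0.01 over all probes. Over the 4 genes above background it was −0.57, against 0.03 over the bright probes. Without replicate 3 the differences were −1.44 for CAV2 (adjusted p = 1.62e-06) and −0.80 for SDPR (adjusted p = 9.05e-04 from limma), with 3.66% of all probes called.

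Adipocyte markers were also lower in the PPARγ KD. From day −2 to day 6 in the PPARγ KD, 6 of the 9 on the array were called higher and 0 lower, where 1.92% of all probes were called lower. ADIPOQ rose by 7.05 and LPL by 1.82 in log2 signal. FABP4, LEP and SLC2A4 changed by 0.31, 0.33 and 0.63 and were not called. They were above background on 0 KD arrays, so a fall could not have been seen. CAV2 changed by −0.90 and SDPR by 0.10. Under control siRNA 8 of the 9 markers were called higher over that span, as were CAV2 (1.45) and SDPR (1.25), where 4.11% of all probes were. Of the 10 markers listed, 9 were on the array and 9 of 9 were called lower in the PPARγ KD in both fits. Of all probes, 6.74% were called lower over days −2 to 6 and 3.77% on days 4 to 6 (15% and 8.12% of the bright probes). The summed signal of the markers on days 4 to 6 lay between 140685 and 188772 under control siRNA and between 16449.6 and 41290.1 in the PPARγ KD. FABP4, PLIN, LEP and SLC2A4 were above background on 0 KD arrays, and LEP on 1 of 24 control arrays with a control mean below the lowest signals counted as above background, so its size of change was not measured. Of 8 preadipocyte or fibroblast markers, 0 were lower and 5 higher over days −2 to 6, where 6.37% of all probes and 15.3% of the bright probes were higher. On days 4 to 6, 1 of them was higher, where 5.31% of all probes were called in either direction, most of them lower (3.77% of all probes). Without replicate 3 these counts of higher markers were 4 and 0. The part of these shifts in the caveola values was not tested.

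Caveolin 2 went from signals above the controls on day −2 to signals far below them on days 5 and 6. On day −2 the 3 control arrays gave CAV2 log2 signals of 8.62, 8.59 and 9.04, and the 3 arrays of the PPARγ KD gave 9.06, 9.07 and 9.77. All KD arrays were thus above all controls, as for 4.23% of probes, but the difference of 0.55 (SE 0.11) had an adjusted p of 0.472 from limma. Under Benjamini-Hochberg adjustment that difference passed (adjusted p = 0.0014 from limma). Day 0, the end of the IBMX and dexamethasone treatment, was the low point of CAV2 in both groups, with 7.23, 7.19 and 8.14 under control siRNA and 7.48, 7.84 and 8.13 in the PPARγ KD, and there the groups overlapped. On day 1 the controls had risen to 9.02, 9.11 and 9.49 against 8.56, 8.59 and 8.96, so that every KD array was below every control, as for 6.54% of probes, while the difference of −0.50 had an adjusted p of 1. The day 1 difference passed under Benjamini-Hochberg adjustment (adjusted p = 0.00145 from limma).

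On day 2 the CAV2 signals were 9.81, 9.95 and 10.39 under control siRNA and 8.90, 8.84 and 9.73 in the PPARγ KD. The groups did not overlap, as for 9.91% of probes, and the difference of −0.89 (SE 0.11) had an adjusted p of 3.61e-05 from limma. That call was lost in 2 of 11 alternative settings, among them without replicate 1 (CAV2 difference −0.88, adjusted p = 0.58). It was kept without replicate 3 (−1.01, adjusted p = 0.00106). Day 3 brought the groups together again, with 8.97, 8.92 and 9.71 against 8.72, 8.63 and 9.28 (difference −0.32, adjusted p = 1). On day 4 the values were 9.24, 9.11 and 9.76 against 8.50, 8.25 and 9.28, and the KD array of replicate 3 was above the controls of replicates 1 and 2. That day's CAV2 difference of −0.69 had an adjusted p of 0.00907 from limma, a call lost in 5 of 11 alternative settings: it was −0.67 without replicate 1 and −0.61 without replicate 2 (adjusted p = 1 for each), and −0.80 without replicate 3 (adjusted p = 0.0364).

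Days 5 and 6 showed the largest CAV2 differences of the 8 days. Control signals were 9.90, 9.83 and 10.43 on day 5 and KD signals 8.32, 8.01 and 9.05 (−1.60, 3.02-fold, adjusted p = 3.08e-12 from limma). Day 6 gave 9.95, 9.92 and 10.74 against 8.21, 8.01 and 8.99 (−1.80, 3.48-fold, adjusted p = 6.66e-14). Every KD array lay below every control on these days, as for 6.72% and 6.67% of all probes. Without replicate 3 the CAV2 differences were −1.70 and −1.82. The call of each day was lost in 1 of 11 alternative settings (adjusted p = 0.497 on day 5 and 0.0745 on day 6 from limma).

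**Figure D2:**
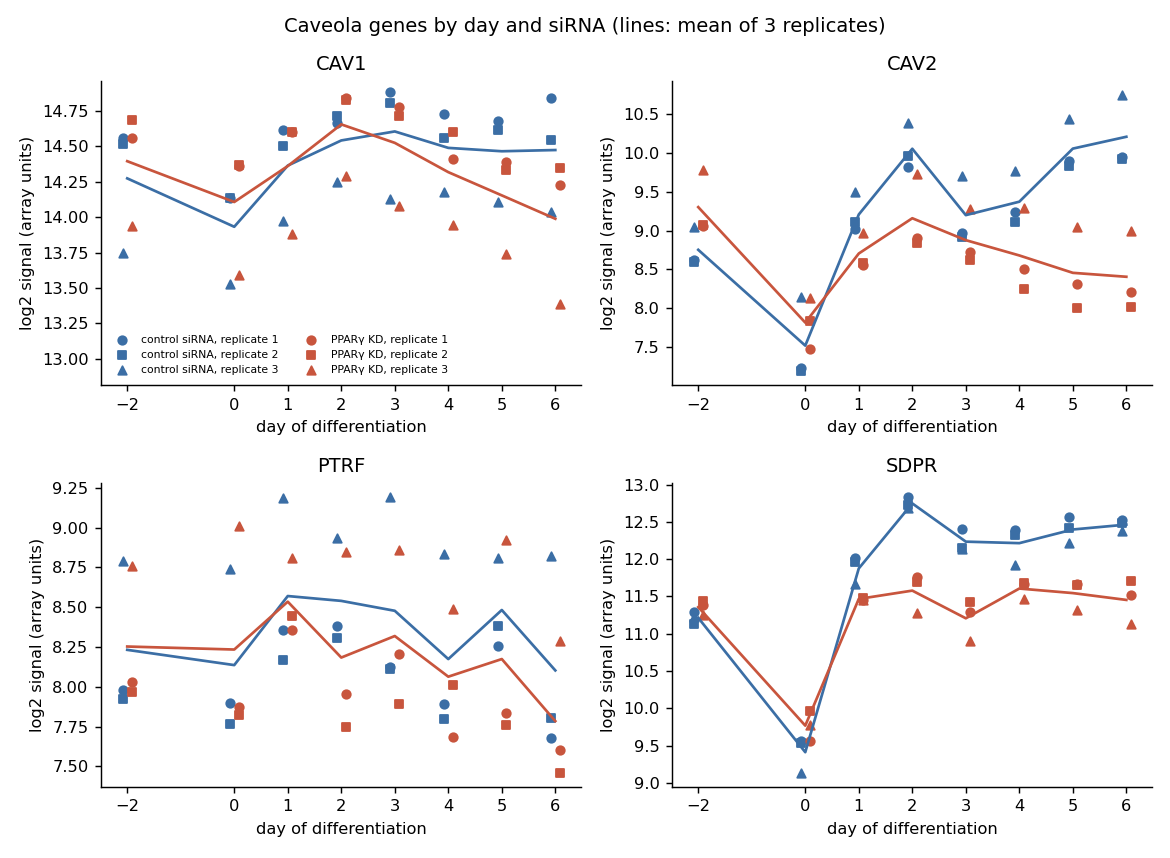
Log2 signal (array units) of CAV1, CAV2, PTRF and SDPR by day of differentiation, with control siRNA in blue and PPARγ KD in red; circles, squares and triangles are replicates 1, 2 and 3, lines join the means of 3 replicates, and each panel has its own axis. CAV2 and SDPR dip on day 0 in both groups and then separate, with KD points of SDPR below all control points of the same day on days 1 to 6, while the CAV1 and PTRF points of replicate 3 lie apart from the others.

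SDPR, the cavin 2 gene, had overlapping groups on days −2 and 0 and every KD array below every control from day 1 to day 6. On day −2 its log2 signals were 11.29, 11.13 and 11.23 under control siRNA and 11.39, 11.44 and 11.25 in the PPARγ KD. On day 0 they had dropped to 9.56, 9.53 and 9.13 against 9.56, 9.97 and 9.77. The groups overlapped on both days, with SDPR differences of 0.14 and 0.36 (SE 0.11) and Bonferroni adjusted p-values of 1 from limma; under Benjamini-Hochberg adjustment the day 0 difference passed (adjusted p = 0.0237). By day 1 the controls stood at 12.01, 11.96 and 11.66 and the KD arrays at 11.46, 11.48 and 11.46, all below the controls, with a difference of −0.41 that did not pass the test (adjusted p = 1 from limma). It passed under Benjamini-Hochberg adjustment (adjusted p = 0.00805 from limma).

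The SDPR difference was largest on day 2, when control signals were 12.84, 12.72 and 12.68 and KD signals 11.76, 11.70 and 11.27 (−1.17, SE 0.11, 2.25-fold, adjusted p = 1.13e-08 from limma). On day 3 the signals were 12.41, 12.15 and 12.14 against 11.30, 11.43 and 10.90 (−1.03, adjusted p = 3.94e-07). That call was lost in 1 of 11 alternative settings (adjusted p = 0.0838 from limma). On day 4 they were 12.39, 12.33 and 11.92 against 11.67, 11.68 and 11.47, and the difference of −0.61 passed narrowly (adjusted p = 0.046) and lost the call in 8 of 11 alternative settings. Leaving out replicate 1, 2 or 3 gave SDPR differences of −0.55, −0.59 and −0.69 on day 4, with adjusted p-values of 1, 1 and 0.251. On all 3 days the groups did not overlap, as for 9.91%, 5.94% and 5.54% of probes.

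On day 5 the SDPR signals were 12.57, 12.41 and 12.22 under control siRNA and 11.67, 11.66 and 11.32 in the PPARγ KD (−0.85, adjusted p = 4.34e-05 from limma). On day 6 they were 12.53, 12.48 and 12.38 against 11.52, 11.71 and 11.13 (−1.01, 2.02-fold, adjusted p = 6.23e-07). The groups were again apart on both days, as on each of the 6 days from day 1. The day 5 call of SDPR was lost in 3 of 11 alternative settings, with adjusted p-values from limma up to 0.316. It was lost without replicate 1 (−0.83, adjusted p = 0.143) and kept without replicate 3 (−0.83, adjusted p = 0.0198).

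CAV1, the caveolin needed for pits to form, differed less between the siRNAs on any day than replicate 3 differed from the others on average. Its control signals ran from 13.53 to 14.89 over all arrays and its KD signals from 13.39 to 14.84, and the groups overlapped on each of the 8 days. Overlap takes no account of replicate number, unlike the fit. Within replicates CAV1 was lower in the KD in 3 of 3 on days 3, 5 and 6, and higher in 3 of 3 on days −2, 0 and 2. On day 5 CAV1 differed by −0.29, −0.28 and −0.37 in the 3 replicates (Benjamini-Hochberg adjusted p = 0.0104 from limma). Its differences ran from 0.17 on day 0 down to −0.49 on day 6 (SE 0.08), when control arrays gave 14.84, 14.55 and 14.04 and KD arrays 14.23, 14.35 and 13.39. Day 6 was its only called day (adjusted p = 0.035 from limma), and 7 of 11 alternative settings lost that call; leaving out replicate 1, 2 or 3 gave −0.42, −0.63 and −0.41, with adjusted p-values of 1, 0.177 and 1. PTRF, the essential coat subunit, ran from 7.68 to 9.19 under control siRNA and from 7.46 to 9.01 in the PPARγ KD, overlapped on each day and was called on none, with differences from 0.10 on day 0 to −0.36 on day 2 (SE 0.12).

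Called lower were therefore 2 of 6 probes on days 2, 4 and 5, 1 on day 3 and 3 on day 6, where 4.18%, 2.13%, 2.68%, 2.29% and 3.09% of all probes were called lower on those days. No caveola probe was called on day −2, 0 or 1, when 0.861%, 3.03% and 2.91% of all probes were called in either direction, and 0 were called higher on any day. On day 2 the median difference over all probes was −0.12, and it was 0.03 over the bright probes.

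**Figure D3:**
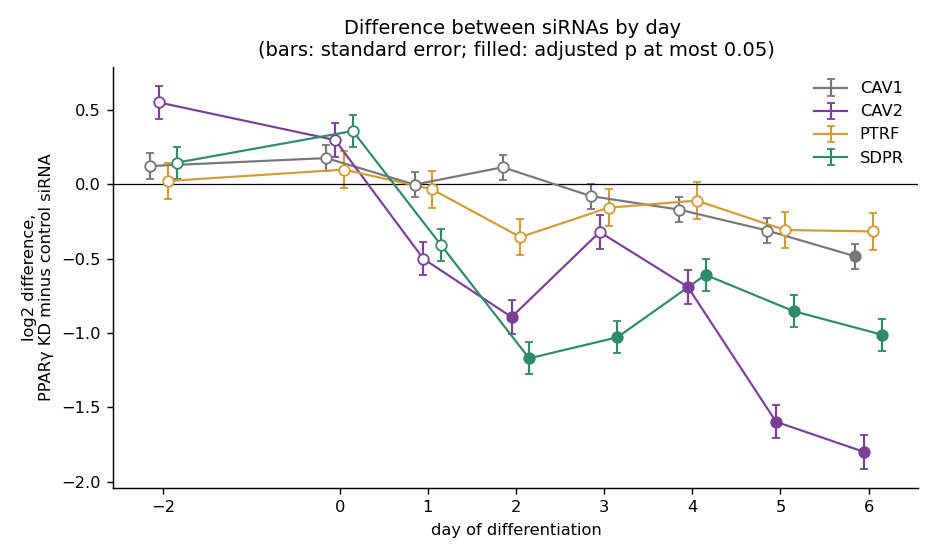
Log2 difference between PPARγ KD and control siRNA for CAV1, CAV2, PTRF and SDPR on each day, with the standard error of the fit over 48 arrays as bars; filled points have a Bonferroni adjusted p of at most 0.05 from limma. CAV2 starts above 0 on day −2 (0.55), returns to −0.32 on day 3 and ends at −1.80, SDPR stays between −0.61 and −1.17 from day 2, and CAV1 drifts down to −0.49 while PTRF has no filled point.

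Under control siRNA, CAV2 and SDPR fell during the IBMX and dexamethasone treatment, rose over the 2 days of insulin and rosiglitazone, and ended above their start. From day −2 to day 0, CAV2 changed by −1.23 and SDPR by −1.80 on the log2 scale (both called), where 5.04% of probes were called lower, and from day 0 to day 2 they rose by 2.53 (5.77-fold) and 3.34 (10.1-fold), where 6.55% were called higher. CAV1 rose by 0.61 over the same 2 days (adjusted p = 3.71e-04 from limma), a call that 5 of 10 alternative settings lost, each of the 3 that left out a replicate included, and PTRF changed by 0.40 (SE 0.12, adjusted p = 1). From day 2 to day 3 CAV2 dropped by 0.85 (adjusted p = 1.05e-04; 3.92% of probes were called lower) and SDPR changed by −0.51 (adjusted p = 0.737), after which CAV2 rose by 1.01 up to day 6 (adjusted p = 1.84e-06 from limma; 1.87% were called higher). Both of these CAV2 calls were lost without replicate 1 (−0.86, adjusted p = 0.859, and 1.02, adjusted p = 0.0858) and with no replicate term (adjusted p = 1 for each). The spans from day 0, 2 and 3 were picked after the values were seen.

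On day 6 CAV2 was 2.74-fold and SDPR 2.38-fold above day −2 under control siRNA (log2 1.45 and 1.25, adjusted p = 5.76e-11 and 1.65e-09 from limma; 4.11% of probes were called higher), and CAV1 and PTRF changed by 0.20 and −0.13 with adjusted p-values of 1. Without replicate 3 the CAV2 rise was 1.33. Over the 7 comparisons with day −2, limma's F-test called CAV1 (adjusted p = 9.54e-04), CAV2 (2.31e-19) and SDPR (4.65e-23), or 3 of 6 probes where 23.5% of all probes were called. The CAV1 call was lost when any 1 replicate was left out, with adjusted p-values between 0.882 and 1.

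In order of their mean log2 signals, the control days ran for CAV2 from day 0 (7.52) through days −2 (8.75), 3 (9.20), 1 (9.21), 4 (9.37), 2 (10.05) and 5 (10.05) to day 6 (10.20). Days 3 and 1, and days 2 and 5, differed by less than the SD of that step between replicates. For SDPR the order was day 0 (9.41), −2 (11.21), 1 (11.88), 4 (12.22), 3 (12.24), 5 (12.40), 6 (12.46) and 2 (12.75), in which days 4 and 3 and days 5 and 6 could not be told apart in that sense. Day 2 was thus the top of SDPR, where CAV2 had its first of 2 crests.

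In the PPARγ KD both genes also fell up to day 0, and their rise up to day 2 was smaller than under control siRNA. From day −2 to day 0, CAV2 changed by −1.48 and SDPR by −1.59 (both called), where 4.02% of probes were called lower, and the change differed from that of the controls by −0.25 (SE 0.16) and 0.21 (SE 0.15), each with an adjusted p of 1 from limma. From day 0 to day 2 they rose by 1.34 and 1.81, where 3.1% were called higher. The rise minus that of the controls was −1.19 for CAV2 (SE 0.16, adjusted p = 1.48e-04 from limma) and −1.53 for SDPR (SE 0.15, adjusted p = 1.07e-07 from limma), where 1.75% of probes were called lower. The CAV2 call was lost in 3 of 11 alternative settings: without replicate 1 (−1.20, adjusted p = 0.962), without replicate 2 (−0.91, adjusted p = 0.563) and with no replicate term (adjusted p = 1). CAV1 rose by 0.55 (adjusted p = 0.00349), a change that differed from that of the controls by −0.06 (SE 0.12).

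By day 6 in the PPARγ KD, CAV2 was below its day −2 value by −0.90 (adjusted p = 3.41e-05 from limma; 1.92% of probes were called lower) and SDPR was within 0.10 of it (SE 0.11, adjusted p = 1). The CAV2 call was lost in 2 of 10 alternative settings, among them without replicate 1 (−0.92, adjusted p = 0.367). CAV1 changed by −0.41 (adjusted p = 0.632) and PTRF by −0.47 (adjusted p = 1), lower in all 3 replicates. From day 3 to day 6 CAV1 fell by 0.54 (adjusted p = 0.0054 from limma; 0.512% of probes were called lower), a call lost in 5 of 10 alternative settings, each of the 3 that left out a replicate included. For CAV2 the order of KD days began with day 0 (7.82) and days 6, 5 and 4 (8.41, 8.46 and 8.68) and ended with days 2 (9.16) and −2 (9.30), and for SDPR all neighbouring days from day 3 (11.21) to day 4 (11.61) differed by less than their spread. Limma's F-test over time called CAV1 (adjusted p = 3.25e-04), CAV2 (5.11e-10) and SDPR (1.96e-14), 3 of 6 probes where 16.5% of all probes were called; the CAV1 call was again lost without any 1 replicate, with adjusted p-values between 0.298 and 1.

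The time courses themselves differed between the siRNAs for CAV2 and SDPR. Limma's F-test over the 7 differences in change since day −2 gave adjusted p-values of 3.99e-13 for CAV2 and 1.86e-08 for SDPR, with 0.32 for CAV1 and 1 for PTRF, so that 2 of 6 probes were called where 7.11% of all were. Restricted to probes above background on at least 3 arrays, CAV1 passed at 0.0433. From day −2 to day 6 the change in the PPARγ KD was lower than under control siRNA by −2.35 for CAV2 (SE 0.16, adjusted p = 8.88e-13) and by −1.15 for SDPR (SE 0.15, adjusted p = 1.21e-04 from limma), where 2.09% of probes were called lower. The values by replicate were −2.18, −2.38 and −2.48 for CAV2 and −1.10, −1.09 and −1.27 for SDPR. Without replicate 3, CAV2 was at −2.28 (adjusted p = 3.66e-07). The SDPR value was −1.18, −1.19 and −1.10 without replicate 1, 2 or 3, and none of these passed (adjusted p = 0.133, 0.0861 and 0.0509).

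From day 3 to day 6 the CAV2 difference between the siRNAs widened, and that of SDPR was about the same on both of these days, with smaller values on days 4 and 5. Over this span CAV2 changed by −1.48 more in the PPARγ KD than under control siRNA (SE 0.16, adjusted p = 7.07e-07 from limma), where 0.398% of probes were called lower, and SDPR changed by 0.02 (SE 0.15, adjusted p = 1). The CAV2 call was lost without replicate 1 (−1.47, adjusted p = 0.0637) and with no replicate term (adjusted p = 1). The mean effect of days 4 to 6 minus that of days 0 to 2 was −0.996 for CAV2 (SE 0.09, adjusted p = 1.02e-08 from limma) and −0.42 for SDPR (SE 0.09, adjusted p = 0.784). It was −0.42 for CAV1 (SE 0.07, adjusted p = 0.0133) and −0.15 for PTRF (SE 0.10, adjusted p = 1). Hence 2 of 6 probes were called, where 3.63% of all probes were called; the CAV1 call was lost in 7 of 11 alternative settings, with values between −0.33 and −0.48. Without replicate 1, 2 or 3 the CAV1 value was −0.36, −0.48 and −0.42 (adjusted p = 1, 0.459 and 1), and the CAV2 value was −1.09 without replicate 3 (adjusted p = 1.02e-05).

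**Figure D4:**
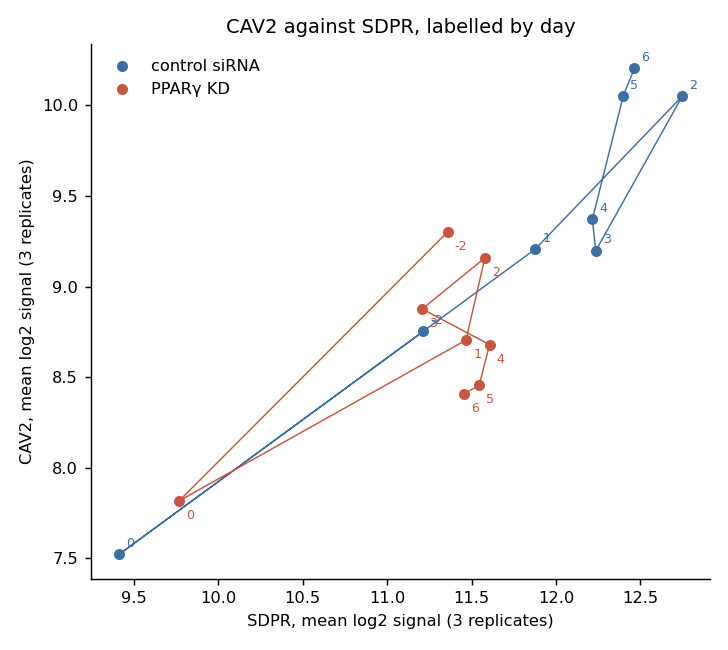
Mean log2 signal of CAV2 against that of SDPR over 3 replicates, 1 point per siRNA and day, joined in order of the days given beside the points, with control siRNA in blue and PPARγ KD in red. On day −2 the KD line starts higher in CAV2 (9.30) than the control line (8.75). Both lines drop to day 0 and climb, the control line to the top right (12.46 and 10.20 on day 6) and the KD line turning down in CAV2 at nearly constant SDPR from day 4 (8.68) to day 6 (8.41).

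Over the 16 means per siRNA and day, CAV2 and SDPR followed each other with r = 0.90, and with 0.95 over the 8 control means and 0.69 over the 8 KD means. CAV1 correlated with SDPR at 0.96 over the control means and at 0.33 over the KD means, and with CAV2 at 0.85 and 0.77. PTRF correlated with the other 3 at −0.13 to 0.52, over all 16 or over 8 means. These coefficients describe means that share arrays, treatments and the common day 0 trough.

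Among the 9213 bright probes outside the 5 genes, those most like SDPR over the 16 means were MTERFD2 (r = 0.98), SCARB1 (0.97) and MGAT4B (0.95). Those most like CAV2 were CYP51 (0.94), PPP1CB (0.93) and SQLE (0.92). CAV1 was closest to SPG7 (0.85), C920006C10RIK (0.83) and MFN2 (0.83), and PTRF to COPS7A (0.90), LOC100048046 (0.89) and G3BP2 (0.89). The coefficients of CAV1 were the lowest of the 4, and its 16 means spanned 13.93 to 14.66.

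None of the other genes of the caveola coat and neck passed as lower over days −2 to 6 or days 4 to 6 with all 3 replicates. Of 12 listed, 11 were on the array and 7 were above background on at least 24 arrays. Over days −2 to 6, 0 of the 11 were lower, 3 were higher and 8 did not pass, with a median difference of 0.03, where 6.37% of all probes were higher, and on days 4 to 6 none was called in either direction. Those higher were EHD3, an EHD2-related ATPase (0.64, adjusted p = 1.80e-14 from limma), PACSIN3, a membrane-bending F-BAR protein (0.27, adjusted p = 1.94e-07), and EHD4 (0.21, adjusted p = 0.00536). The mean effect of days 4 to 6 minus that of days 0 to 2 was −0.70 for EHD3 (adjusted p = 4.32e-05 from limma) and −0.62 for EHD1 (adjusted p = 5.87e-05). No other gene of the list was called in that comparison, where 3.63% of all probes were called. PRKCDBP, the third of the widely expressed cavins, differed by −0.16 (SE 0.04) and on days 4 to 6 by −0.29 (SE 0.06), with adjusted p-values of 1, and CAV3, the muscle caveolin, was above background on no array. Without replicate 3, 1 of the 11 was lower and 3 higher.

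Flotillins, which organise a different class of membrane domain, gave 0 of 2 called, with FLOT1 at −0.00 and FLOT2 at 0.11. Of 7 genes listed as membrane proteins known from adipocyte caveolae, 5 were lower over days −2 to 6 and 0 higher, with a median of −0.77. Of all probes 6.74% were lower, and of the bright ones 15%. The largest difference was that of LIPE, the hormone-sensitive lipase, which is not itself a membrane protein (−2.21, adjusted p = 2.00e-28 from limma). LIPE was detected on 23 control and 13 KD arrays of 24 each. The others were AOC3, a surface amine oxidase (−1.07), SCARB1, a receptor for HDL (−0.77), SLC27A1, a fatty acid transporter (−0.28, adjusted p = 4.48e-04), and CD36, a fatty acid translocase. CD36 was above background on 9 control arrays and 0 KD arrays and its mean control signal was below the lowest signals counted as above background, so no fold is given. On days 4 to 6 LIPE, AOC3 and SCARB1 were called lower, where 3.77% of all probes and 8.12% of the bright ones were. Without replicate 3 the counts were 5 lower and 1 higher over all days.

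Clathrin-coated pits, the main alternative route of uptake, gave 0 lower and 3 higher of 13 genes on the array over days −2 to 6 (median 0.04), where 15.3% of the bright probes were higher. The 3 were the adaptors DAB2 (0.37, adjusted p = 6.59e-11 from limma), EPN2 (0.24) and AP2A2 (0.22), and DAB2 was also higher on days 4 to 6 (0.42, adjusted p = 0.0376). Without replicate 3, 1 of 13 was higher over all days and 0 on days 4 to 6. None of the 8 genes whose start lies within 1 Mb of that of Cav1 was lower: TES, which lies before Cav2 and codes for a focal adhesion protein, was higher (0.70, adjusted p = 1.23e-14), ST7 differed by 0.18, and the other 6 were above background on fewer than 24 arrays.

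**Figure D5:**
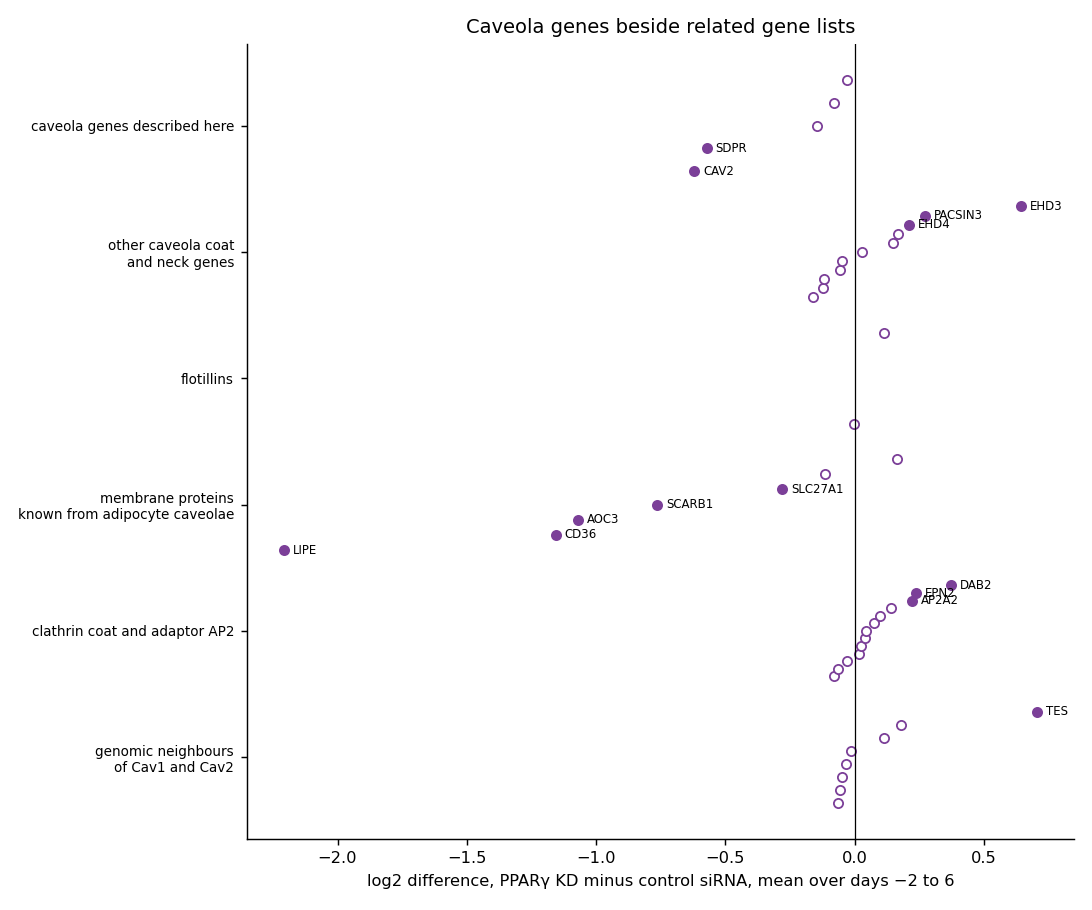
Log2 difference between PPARγ KD and control siRNA, averaged over days −2 to 6, for the 5 caveola genes and for genes of 5 related lists, 1 point per gene by its brightest probe; filled and named points have a Bonferroni adjusted p of at most 0.05 from limma, and heights within a list only spread the points. CAV2 (−0.62) and SDPR (−0.57) lie left of 0, as do the filled points of 5 of the 7 genes listed for adipocyte caveolae. No filled point of the coat and neck, clathrin or neighbour lists lies left of 0. CD36 is placed at its measured value, which in the PPARγ KD is below background.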

How the data were processed

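RNA of 48 cultures was measured on Illumina MouseRef-8 arrays, 3 replicates for each siRNA and day, and groups were taken from the sample labels. The authors exported mean bead intensity, its SD and the number of beads per probe from BeadStudio 3.3.7 with no normalization, background correction or pooling, per the file headers. The deposited detection values are a fraction, 1 minus the detection p-value against the negative control beads of the array. Here intensities were background-corrected by normexp with those p-values (limma 3.58.1 in R 4.3.3, offset 16). They were then scaled on rank-invariant probes, those between the 50th and the 90th percentile whose rank moved by less than 0.05 of all probes, and taken to log2. Figures were drawn with matplotlib 3.10.9.

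All 24613 probes were fitted by lmFit and eBayes with 16 group means (siRNA by day) plus replicate number, over all 48 arrays or, for days 4 to 6, over their own 18. Calls were made at 0.05 after Bonferroni adjustment over all probes; standard errors are those of the fit, and tests are two-sided. The number of arrays, not read depth, limits the precision. The model was tested on simulated data with known changes. Alternatives were quantile normalization, median scaling, no background correction, an offset of 50, only probes above background on at least 3 arrays, Benjamini-Hochberg adjustment, no replicate term, a replicate term within each day, and leaving out each replicate.

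The members and all lists (other caveola coat and neck genes, flotillins, membrane proteins known from adipocyte caveolae, clathrin and AP2, genomic neighbours of Cav1, and cell type markers) were chosen with earlier results of these data known. Every member probe is named. Of each list at most 8 genes past the threshold are named, by their brightest probe. For each member measured above background on at least 24 arrays the 3 probes with the highest Pearson correlation over the 16 means are named. PRKCDBP, CAV3, EHD1, FLOT1, FLOT2 and ST7 were named after their values were seen. Gene names are those of the array. Promoter sequences and their coordinates come from RefSeq's table for GRCm38.p6, in which all 5 genes were found by symbol.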

Additional observations from a re-analysis of the deposited data

Results flagged for a closer look

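The effect of the PPARγ KD differed between the early and the late days for both caveolins. The mean log2 difference of days 4 to 6 minus that of days 0 to 2 was −0.42 for CAV1 and −0.996 for CAV2, lower in 3 of 3 replicates for each. The change from day −2 to day 6 differed between the siRNAs for CAV2 by −2.35 and for SDPR by −1.15, again in 3 of 3 replicates. All 4 are tests of the difference itself, by limma with Bonferroni adjustment, and of these the CAV1 value and the SDPR value lost their call when any 1 replicate was left out.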

How the results depend on the processing

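No called member difference changed sign under any of the 11 alternatives. SDPR was called over days −2 to 6 and over days 4 to 6 in all 11, with log2 differences from −0.63 to −0.52 and from −0.87 to −0.75. CAV2 ranged from −0.65 to −0.52 and from −1.44 to −1.15, and lost both calls without the replicate block (adjusted p = 0.115 at −0.62 and 0.134 at −1.36). Without that block, the member probes called were 1 over all days, 1 over days 4 to 6, 0 for late minus early, 1 of 3 for the KD time course and 1 for the difference in time course. Benjamini-Hochberg adjustment called 4 member probes over all days and 4 over days 4 to 6, adding CAV1 (−0.0803, adjusted p = 0.037, and −0.32, adjusted p = 6.29e-04) and PTRF (−0.15, adjusted p = 0.00787, and −0.25, adjusted p = 0.0242). For late minus early, 1 member probe was called in place of 2 under quantile normalization, median scaling and a replicate block within each day, and from 1 to 1 when a replicate was left out. That block could not be fitted to changes within 1 siRNA.

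Over all probes, the main counts were 3227 over all days, 1307 over days 4 to 6, 894 for late minus early, 5776 and 4068 for change over time in the controls and in the KD, and 1750 for the difference in time course. In that order they were 7605, 5125, 2939, 9813, 8876 and 5294 under Benjamini-Hochberg adjustment. They were 1769, 568, 426, 3210, 2043 and 752 with no replicate block, 1814, 613, 331, 2832, 1628 and 463 without replicate 1, and 1749, 547, 368, 3116, 1764 and 523 without replicate 2. Other counts that moved by over 1.5 times were 2571 and 1138 for the KD time course and the difference in time course without replicate 3, 1023 for the latter under median scaling, and 595 and 932 for late minus early and the difference in time course with a block within each day.

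Nothing in the labels says that equal replicate numbers were handled together. Deviations from the group means of same-numbered arrays of the 2 siRNAs correlated at 0.0239 to 0.901 over all probes in 24 pairs, 23 of them over 0.1, and 14 of 24 correlated best with their own number. Over the 9217 bright probes the range was 0.631 to 0.928, with 16 of 24 best with their own number. EHD2 and CAV2 probe 5130286 were at background throughout, so their values hold no measured change.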
